A study of Mus musculus with 6 samples.

Results

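Globin and red cell transcripts were followed here in mouse hearts. The members are the adult alpha globin genes Hba-a1 and Hba-a2, the adult beta globin genes Hbb-bs and Hbb-bt, and Alas2, the erythroid enzyme of heme synthesis. They were chosen by symbol as a measure of blood in the tissue, and all 5 were found among the 18005 genes listed in the count and FPKM tables. RNA was sequenced from hearts of 3 old and 3 young mice, all wild type and untreated per the labels. The series title places the comparison in cardiac hypertrophy of old age. Nothing in the sources used here gives the ages in months, the strain, the sex or whether the hearts were flushed of blood. Each library was taken as 1 mouse, since its title carries a number of its own.

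A red cell carries oxygen on hemoglobin, a tetramer of alpha and beta globin chains that each hold a heme group. Mature mouse red cells have no nucleus, but the youngest of them, the reticulocytes, still hold messenger RNA, most of it for globins. The heart muscle cell has a globin of its own, myoglobin (Mb), so alpha and beta globin transcripts in heart RNA are taken in this field as a sign of blood in the sample. Heme synthesis starts by joining glycine to succinyl coenzyme A, a step run by Alas2 in red cell precursors and by Alas1 in other cells.

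Levels of the 5 genes went together across the libraries, young 1 being the lowest and young 2 the highest for each. The promoters of the members are shown as a description, and whether they have any part in this pattern was not tested. The sequences are RefSeq's on GRCm38.p6 and cover the 130 bases just before each annotated start, read 5′ to 3′ on the gene's strand, and all 5 members matched the promoter table by symbol. The counts were made on a later build per the submitters' processing notes, so these coordinates belong to the sequences alone. Capitals mark matches, on either strand, to CACCC (letters that Kruppel-like factors bind), to the CCAAT box, to TATAA (the core of a TATA box), and to GATA-type letters, which are GATA with A or T before it and A or G after it. In Hbb-bt 2 matches to CCAAT on opposite strands lie side by side as 1 run of capitals, and in Alas2 the 3 reverse matches to CACCC do.
Hba-a1 (chr11:32283542-32283671, plus strand): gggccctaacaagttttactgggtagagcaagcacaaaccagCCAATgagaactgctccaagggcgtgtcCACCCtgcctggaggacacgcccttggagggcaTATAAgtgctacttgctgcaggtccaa
Hbb-bs (chr7:103827929-103828058, minus strand): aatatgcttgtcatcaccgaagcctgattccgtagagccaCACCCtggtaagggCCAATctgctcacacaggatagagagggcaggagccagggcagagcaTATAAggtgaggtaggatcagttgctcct
Hbb-bt (chr7:103813924-103814053, minus strand): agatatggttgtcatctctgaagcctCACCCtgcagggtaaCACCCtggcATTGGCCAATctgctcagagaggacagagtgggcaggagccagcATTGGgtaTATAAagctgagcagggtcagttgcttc
Alas2 (chrX:150547287-150547416, plus strand): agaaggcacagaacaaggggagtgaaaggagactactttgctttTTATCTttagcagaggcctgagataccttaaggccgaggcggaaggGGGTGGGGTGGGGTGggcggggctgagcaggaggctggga

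Each of the 4 globin promoters held the first 3 of these motifs within these 130 bases, a combination found in 0.892% of the 27018 promoters searched. None of the 4 held GATA-type letters there, so the combination is the one they share. As paralogs they are not separate cases, and the share is a description only. Alas2 held the GATA-type letters and CACCC within the 130 bases, which 14.2% and 33.2% of all promoters hold. Over the 250 bases before the start, GATA-type letters were also found in Hba-a1, Hba-a2 and Hbb-bs, and 27.1% of all promoters hold them in that window. The Hba-a2 window is not printed because 247 aligned bases before the start were identical in Hba-a1 and Hba-a2. Over the same window the beta genes were 73.7% identical.

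The transcripts of each pair are near copies too. GENCODE's Hba-a1 and Hba-a2 transcripts differed at 1 of 538 aligned bases, and those of Hbb-bs and Hbb-bt were 93.6% identical over 609 aligned positions. Of all stretches of 100 bases in Hba-a2, 74.5% occur unchanged in Hba-a1, and of those in Hbb-bt 54.8% occur in Hbb-bs. Reads from such stretches cannot be assigned to 1 copy, and how the authors' counting placed them is not given in the sources used here. The split between copies is therefore uncertain, and sums over copies are given beside single genes. Alas2 overlaps Apex2 on the opposite strand in GENCODE's exons. Apex2 had 10.1 to 11.2 CPM in old and 5.01 to 6.09 CPM in young libraries, against at least 79.5 CPM for Alas2 in every library.

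The labelled tissue was checked first. All 10 cardiomyocyte markers, among them Myh6 and Ryr2, had counts, and together they summed to between 74801 and 78686 CPM in old and between 66411 and 69494 CPM in young libraries. CPM, the count of a gene scaled to library size, was computed here with trimmed mean (TMM) factors. Library totals lay between 11295280 and 12514005 counts, so that 1 count is worth between 0.0799 and 0.0885 CPM before this scaling. The smallest member count in any library was 1018, for Alas2 in young 1.

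Globin transcripts were abundant in every heart, and their amount differed more within the young group than between the groups. The 4 globin genes summed to 3087, 6566 and 4238 CPM in old 1, old 2 and old 3, against 2081, 15486 and 8358 CPM in young 1, young 2 and young 3. Young 1 was the lowest and young 2 the highest of all 6 libraries, so the old libraries lay within the range of the young ones. The mean was 4630 ± 1772 CPM in old and 8642 ± 6707 CPM in young hearts (SD, n = 3 each). The highest library was 2.13 times the lowest in the old group and 7.44 times the lowest in the young group. Summed to 1 row of the count table, the globins had a log2 fold change of -0.90 ± 0.50 (SE, old over young; edgeR's quasi-likelihood test, Benjamini-Hochberg adjusted p = 0.215) and did not pass the test.

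As a share of all counts, globins took 0.301%, 0.627% and 0.418% in old 1, old 2 and old 3, against 0.217%, 1.56% and 0.863% in young 1, young 2 and young 3. The 95% Wilson interval was 0.298% to 0.304% in old 1 and 1.55% to 1.57% in young 2, so that counting error was small beside the spread between mice (such intervals cover counting error only). The mean share was 0.449% ± 0.165 in old and 0.88% ± 0.672 in young hearts (SD, n = 3 each; exact 2-sided permutation p = 0.4, where 3 against 3 cannot go below 0.1). Taking the globin counts out of the library total would raise all other values by at most 0.0227 on the log2 scale, in young 2. In bulk RNA, fewer red cells and less globin RNA per red cell cannot be told apart.

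**Figure D1:**
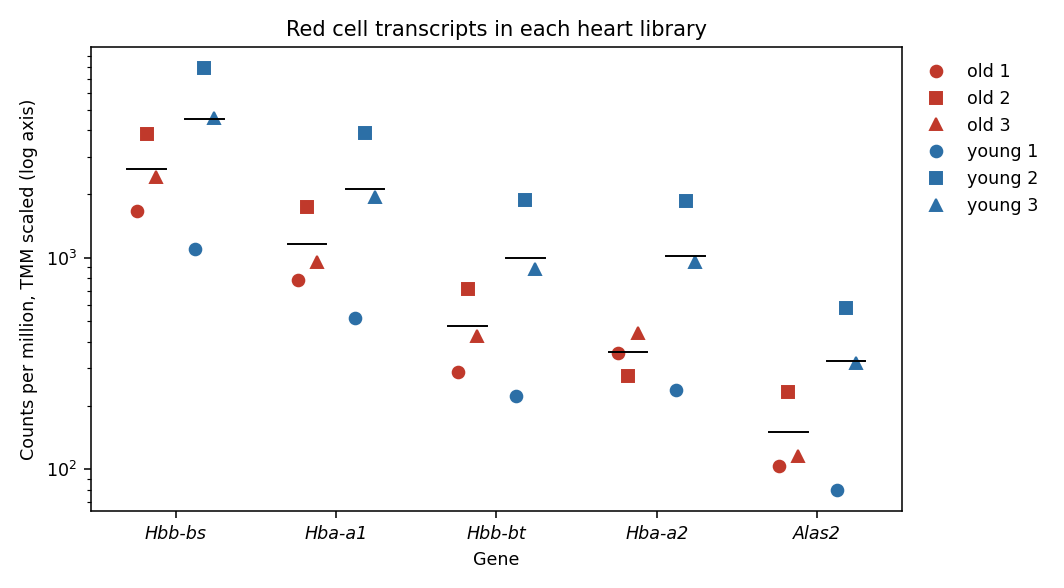
CPM (TMM scaled, log axis) of Hbb-bs, Hba-a1, Hbb-bt, Hba-a2 and Alas2 in the 3 old (red) and 3 young (blue) heart libraries, with 1 point per library and a black bar at each group mean. For each gene young 2 is the highest and young 1 the lowest library, and the old libraries lie between them.

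Of the 5 members, which all passed the filter on low counts, 1 was called lower in old hearts and 0 were called higher by edgeR at an adjusted p under 0.05. Over all 12893 genes tested, 22.0% were called, 10.6% lower and 11.4% higher. All 5 members had a log2 fold change below 0, as had 6573 of the 12893 genes tested. Levels of the members went together across the libraries, so their signs are not separate cases. The groups overlapped in CPM for each of the 5, while they did not overlap for 39.9% of all genes tested, with old lower for 20.3% and old higher for 19.6%.

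Among the alpha chains, Hba-a1 had 788, 1746 and 956 CPM in old 1, old 2 and old 3, against 518, 3886 and 1932 CPM in young 1, young 2 and young 3. Its log2 fold change of -0.86 ± 0.51 did not pass (edgeR adjusted p = 0.249). Hba-a2, which encodes the same kind of chain from the second gene of the cluster, had 356, 275 and 441 CPM in old 1, old 2 and old 3, against 236, 1862 and 958 CPM in young 1, young 2 and young 3. It was the member called lower, at -1.51 ± 0.50 (edgeR adjusted p = 0.0478), although young 1 lay below every old library. The alpha genes summed to 1521 ± 452 CPM in old and 3131 ± 2506 CPM in young hearts (SD, n = 3 each), and this sum was not called (-1.04 ± 0.49, edgeR adjusted p = 0.149).

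Among the beta chains, Hbb-bs had 1655, 3836 and 2415 CPM in old 1, old 2 and old 3, against 1106, 7860 and 4583 CPM in young 1, young 2 and young 3. Its fold change was the smallest of the members, at -0.78 ± 0.50 on the log2 scale (edgeR adjusted p = 0.286). Hbb-bt, the minor adult beta gene in these libraries, had 288, 708 and 427 CPM in old 1, old 2 and old 3, against 222, 1878 and 886 CPM in young 1, young 2 and young 3 (-1.07 ± 0.54, edgeR adjusted p = 0.178). Old 2 was the highest old library for both genes. The beta genes summed to 3110 ± 1321 CPM in old and 5511 ± 4205 CPM in young hearts (-0.83 ± 0.50, edgeR adjusted p = 0.261).

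Alas2 followed the globins at a lower level, with 104, 232 and 115 CPM in old 1, old 2 and old 3, against 79.5, 581 and 317 CPM in young 1, young 2 and young 3. The order of the libraries was that of Hbb-bs and Hba-a1, and the fold change of -1.11 ± 0.51 did not pass (edgeR adjusted p = 0.139).

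These calls turned on single libraries and on the test used. Without young 1, all 5 members were called lower in old hearts, where 5.44% of the genes tested were called lower and 12.0% in either direction, and summed globin stood at -1.36 (edgeR adjusted p = 0.00899). Without young 2, 0 members were called and summed globin stood at -0.17 (edgeR adjusted p = 0.821), with Hba-a1 at -0.08 and Hbb-bs at -0.11. Hba-a2 stayed called without old 3, at -1.68 (edgeR adjusted p = 0.0465), and lost its call without old 1, old 2, young 2 or young 3. DESeq2 and limma-voom called 0 members, with adjusted p for Hba-a2 of 0.178 and 0.159.

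**Figure D2:**
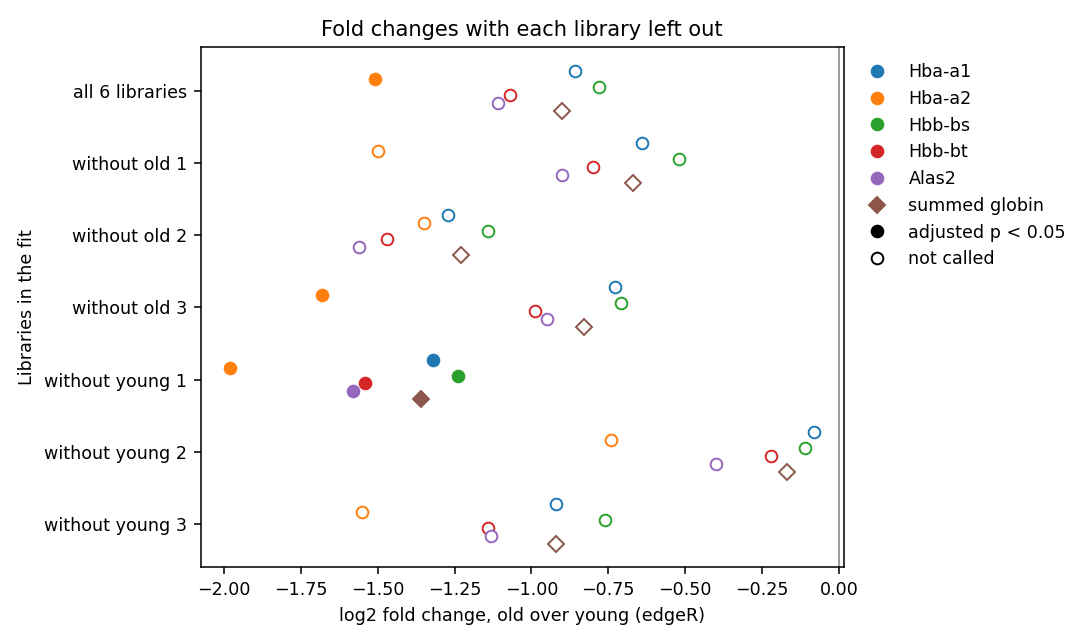
Log2 fold change, old over young, of the 5 members and of summed globin in the edgeR fit of all 6 libraries and in the 6 fits with 1 library left out. Filled marks have an adjusted p under 0.05, which all marks have without young 1 and none has without young 2, where summed globin lies at -0.17.

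The balance of beta to alpha globin varied far less than their amount. Beta globins made up 62.9%, 69.2% and 67.1% of globin counts in old 1, old 2 and old 3, against 63.8%, 62.9% and 65.4% in young 1, young 2 and young 3 (exact permutation p = 0.3). In 5 measures of share and makeup tested in this way, the smallest p was 0.1, the lowest this design allows, and the adjusted values lay between 0.25 and 0.4.

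Old 2 differed from the other 5 libraries in its alpha globins. Hba-a2 made up 13.6% of alpha globin counts in old 2 (95% Wilson interval 13.2% to 14.1%), against 31.1% and 31.5% in old 1 and old 3 and 31.3%, 32.4% and 33.2% in young 1, young 2 and young 3. Hba-a1 was thus 6.34 times Hba-a2 in old 2, and between 2.02 and 2.21 times in the other libraries. Set against the beta genes, Hba-a1 had 38.4 counts per 100 beta globin counts in old 2, inside the range of 33.6 to 40.6 of the other libraries. Hba-a2 had 6.06 counts per 100 beta globin counts in old 2, and between 15.5 and 19.1 in the others. The low share in old 2 therefore lay with Hba-a2 counts that were few, and Hba-a1 counts were not raised relative to beta globin. Between the groups the Hba-a2 share of alpha globin averaged 25.4% ± 10.2 in old and 32.3% ± 0.949 in young hearts (SD, n = 3 each; exact permutation p = 0.2), and without old 2 the difference was -0.94 percentage points, against -6.85 with it. In the edgeR fit without old 2, Hba-a2 stood at -1.35 (adjusted p = 0.117) and was not called.

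A pair of smaller shifts left no overlap between the groups. Hbb-bt made up 14.8%, 15.6% and 15% of beta globin counts in old 1, old 2 and old 3, against 16.7%, 19.3% and 16.2% in young 1, young 2 and young 3 (exact permutation p = 0.1, adjusted over the 5 measures 0.25). Alas2 had 3.37, 3.53 and 2.72 counts per 100 globin counts in old 1, old 2 and old 3, against 3.82, 3.75 and 3.79 in young 1, young 2 and young 3 (exact permutation p = 0.1, adjusted 0.25). The ratio of Alas2 to globin thus stayed between 2.72 and 3.82 per 100 in libraries whose globin level differed 7.44-fold. The intervals of old 2 (3.39 to 3.67) and young 1 (3.59 to 4.07) overlapped.

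**Figure D3:**
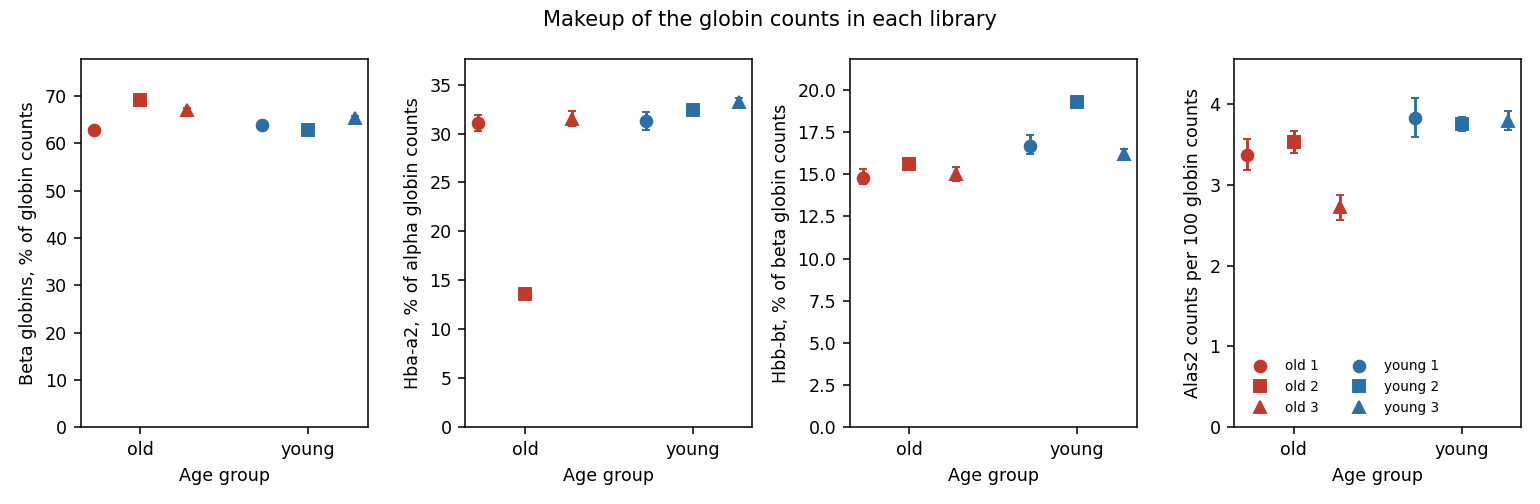
From left to right, the beta share of globin counts, the Hba-a2 share of alpha globin counts, the Hbb-bt share of beta globin counts (all in percent) and the Alas2 counts per 100 globin counts, for the 3 old (red) and 3 young (blue) libraries, with bars for the 95% Wilson interval of counting error. Old 2 stands apart in the Hba-a2 share, at 13.6% against 31.1% to 33.2% in the other libraries.

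Levels can be compared between genes per length, on the deposited FPKM scale. Hbb-bs was the highest member in all 6 libraries, at 3994 ± 1619 FPKM in old and 7201 ± 5300 FPKM in young hearts (SD, n = 3 each), and Hba-a1 came next in 6 of 6 libraries, at 2014 ± 852 FPKM in old and 3846 ± 3030 FPKM in young hearts. Hba-a2 and Hbb-bt were neighbours whose order was not fixed: Hba-a2 was higher in 5 of 6 libraries, and in old 2 it had 467 FPKM, against 1073 FPKM for Hbb-bt. Alas2 was the lowest in every library, at 72 ± 32.6 FPKM in old and 164 ± 124 FPKM in young hearts. Among all genes Hbb-bs ranked 21, 6 and 14 by FPKM in old 1, old 2 and old 3, against 32, 2 and 3 in young 1, young 2 and young 3.

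Myoglobin, the oxygen store of heart muscle, ranked first by FPKM in all 6 libraries and varied little. Mb had 15959 ± 725 FPKM in old and 15269 ± 720 FPKM in young hearts (SD, n = 3 each), and by CPM it did not pass (log2 fold change 0.14 ± 0.08, edgeR adjusted p = 0.23). Blood globins summed to 0.296, 0.667 and 0.436 of the Mb level in old 1, old 2 and old 3, against 0.24, 1.6 and 0.957 in young 1, young 2 and young 3. In young 2 the globins of blood thus exceeded myoglobin per length. Cytoglobin (Cygb), a globin of connective tissue cells, had 143 ± 21.5 CPM in old and 127 ± 8.88 CPM in young hearts and was not called (0.17 ± 0.11, edgeR adjusted p = 0.28). The theta globins Hbq1a and Hbq1b had 40 and 41 counts over all libraries and were not tested. The embryonic Hbb-y had 1 count each in young 2 and young 3 and 0 in the other 4 libraries. Before TMM scaling, a count of 0 allows up to 0.259 CPM in old 1 and less in the other 3.

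The genes whose profile over the 6 libraries lay nearest to summed globin included genes known from red cells. Nearness was the root mean square distance between log2(CPM + 0.5) values, each centred on its mean. Over all genes tested, the members took ranks 1 (Hbb-bs), 2 (Hba-a1), 3 (Hbb-bt), 4 (Alas2) and 18 (Hba-a2). Members other than Alas2 are part of the sum they are compared with. Of the 8 nearest genes outside the members, 6 are described here: Trim10, Bpgm, Tent5c, Apol11b, Ube2l6 and Isg20, at distances of 0.19 to 0.33, against a median of 0.97 over all genes tested. Of these 6, 3 are in the reticulocyte list: Trim10, Bpgm and Isg20. Since they were chosen for their likeness over these libraries, these distances are a description.

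Bpgm, whose enzyme makes the 2,3-bisphosphoglycerate that lowers the oxygen affinity of hemoglobin, had 49.8, 83.7 and 53.6 CPM in old 1, old 2 and old 3, against 40.2, 175 and 107 CPM in young 1, young 2 and young 3. Trim10, needed for terminal red cell differentiation in mouse cell culture, had 0.708, 1.47 and 0.693 CPM in old 1, old 2 and old 3, against 0.234, 4.83 and 2.94 CPM in young 1, young 2 and young 3. Ube2l6, an enzyme that attaches the ubiquitin-like protein ISG15, had 43.8, 68.4 and 44.3 CPM in old, against 35.7, 147 and 79.8 CPM in young libraries. In each of these genes young 1 was the lowest and young 2 the highest library, as for the globins. The 6 genes had log2 fold changes between -1.44 (Trim10) and -0.50 (Tent5c). None of them passed in the edgeR fit of all 6 libraries with no covariate, with adjusted p between 0.108 (Isg20) and 0.378 (Tent5c).

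Red cell genes were also found in the contrast between the libraries at either end of the young range. Of the 12893 genes tested, 15 were at least 4-fold higher in young 2 than in young 1 after adding 0.5 CPM, and 13 were at least 4-fold lower. Of the 15 higher genes, 11 were members or genes of the red cell lists. They included the 5 members, Trim10, Slc4a1, Isg20 and Bpgm. The other 4 were Apol11b, Nr4a1, Tent5c and Ube2l6. These libraries were picked after their globin level was seen, so this is a description of 2 mice with no test.

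**Figure D4:**
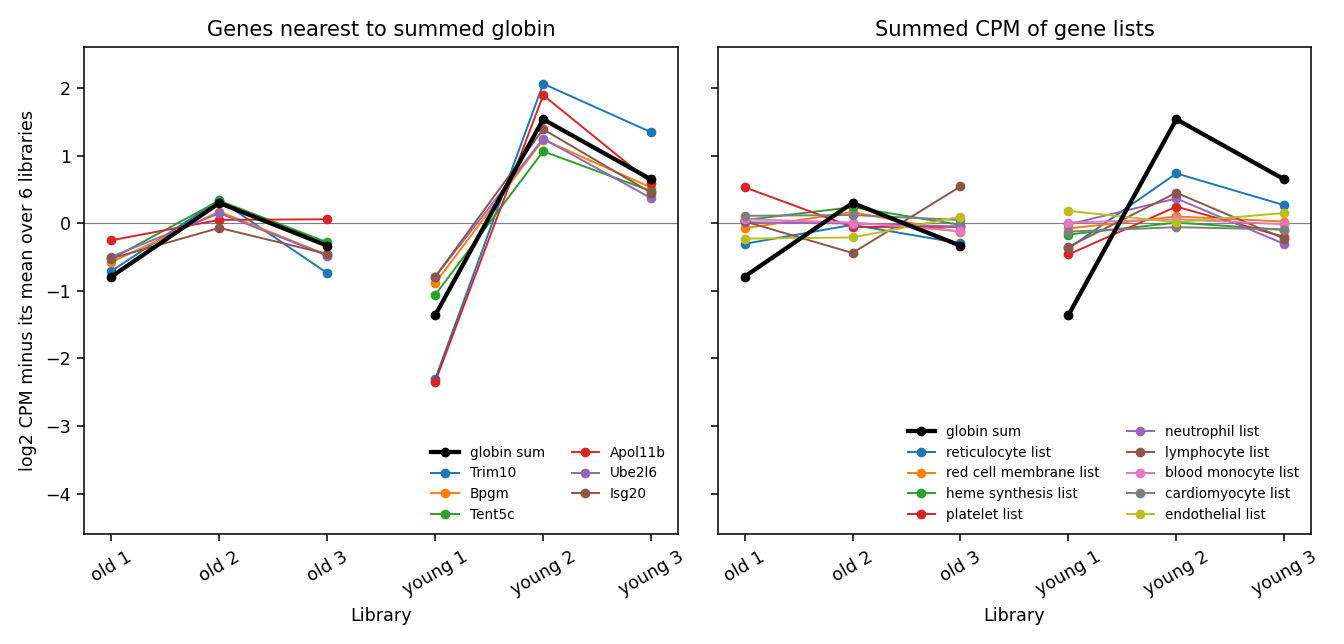
Log2 CPM minus its mean over the 6 libraries, for 6 of the 8 genes nearest to summed globin (left) and for the summed CPM of gene lists (right), with summed globin in black in both, old libraries left and young right. Lines join libraries of a group for reading only, and the reticulocyte list stood at 708 CPM in young 2 and 328 CPM in young 1, a ratio of 2.16, against 7.44 for globin.

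Other red cell genes were then read from lists written from textbook knowledge. Beside this and the later list counts stands the share over all genes tested, with 11.4% called higher and 10.6% called lower. Of 10 tested genes of the red cell membrane, 0 were higher and 2 lower in old hearts, with a median log2 fold change of -0.18, against -0.01 over all genes tested. The 2 were Sptb, the beta spectrin gene of the membrane skeleton (132 ± 18.8 CPM in old and 184 ± 20.9 CPM in young hearts, log2 fold change -0.48 ± 0.12, edgeR adjusted p = 0.013), and Gypc, a glycophorin gene (-0.36 ± 0.09, edgeR adjusted p = 0.016). Neither followed the globin pattern: Sptb had 187 CPM in young 1 and 162 CPM in young 2, and Gypc had 51.2 and 55.6 CPM. Both calls were lost without old 1 and without young 3. Slc4a1, the band 3 anion exchanger, had 2.39, 4.58 and 1.39 CPM in old 1, old 2 and old 3, against 1.56, 12 and 6.58 CPM in young 1, young 2 and young 3, and did not pass (-1.25 ± 0.57, edgeR adjusted p = 0.14). It and other list genes that follow the globins are named after their values were seen. Rhag was at 0 in all libraries.

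Of 10 tested genes of reticulocytes, 0 were higher and 2 lower, with a median log2 fold change of -0.47. The 2 were Ube2o, whose enzyme clears ribosomes from maturing red cells (-0.38 ± 0.12, edgeR adjusted p = 0.038), and Xpo7, a nuclear transport gene (-0.24 ± 0.08, edgeR adjusted p = 0.0496). Ube2o lost its call without old 1, old 3, young 2 or young 3, and Xpo7 without any 1 of the 6 libraries, with RLE scaling, with no filter and with DESeq2. Without young 1, 7 reticulocyte genes and 5 membrane genes were called lower, where 5.44% of all genes tested were. They included Bpgm (-1.18), Isg20 (-1.32) and Slc4a1 (-1.73), with edgeR adjusted p between 0.00367 and 0.0123. With any other library left out, 0 or 1 reticulocyte genes and 0 to 2 membrane genes were called lower. The summed level of the reticulocyte list was 344 to 418 CPM in old and 328 to 708 CPM in young libraries.

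Over all 6 libraries Gata1 and Klf1, transcription factors of the red cell program, had 12 and 8 counts, and Ahsp, the chaperone of free alpha globin, had 48, all named after their values were seen. Of 7 tested erythroid regulators, 1 was higher and 1 lower. Tal1, which endothelial cells also express, was higher in old hearts (13.8 ± 2.21 CPM in old and 9.76 ± 0.769 CPM in young, 0.49 ± 0.14, edgeR adjusted p = 0.027), a call lost without old 1, old 3, young 2 or young 3 and with library size alone or FPKM values. Lmo2, its partner, was lower (34.2 ± 0.816 CPM in old and 47.7 ± 3.68 CPM in young, -0.48 ± 0.08, edgeR adjusted p = 0.0022), whichever library was left out. With 48.1 CPM in young 1 and 51.2 CPM in young 2, Lmo2 did not follow the globin pattern.

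Alas1, the counterpart of Alas2 outside red cells, was higher in old hearts. Of 17 tested heme synthesis genes other than Alas2, 3 were higher in old hearts and 0 lower, with a median log2 fold change of 0.07. Over all genes tested 11.4% were higher and 10.6% lower. Alas1 had 192, 295 and 172 CPM in old 1, old 2 and old 3, against 126, 116 and 127 CPM in young 1, young 2 and young 3. It was higher without overlap, by 0.84 ± 0.16 on the log2 scale (edgeR adjusted p = 0.0041), in each fit with 1 library left out. Per length, Alas2 stood at 0.874, 1.27 and 1.08 times Alas1 in old 1, old 2 and old 3, against 1.02, 8.06 and 4.04 times in young 1, young 2 and young 3. Glrx5, which serves iron-sulfur cluster assembly (0.33 ± 0.08, edgeR adjusted p = 0.016), and Tmem14c, a mitochondrial protein needed for late heme synthesis in mouse red cell precursors (0.36 ± 0.09, edgeR adjusted p = 0.018), were also higher. Both calls were lost without young 1 and without young 3, where 1 gene of this list was called. Tmem14c also lost its call with limma on unfiltered FPKM values.

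Of 9 tested genes of heme breakdown and scavenging, 3 were higher in old hearts and 0 lower. Hmox1, the inducible heme oxygenase, had 46.9, 31.2 and 33.9 CPM in old 1, old 2 and old 3, against 18.1, 18.5 and 19.7 CPM in young 1, young 2 and young 3 (0.99 ± 0.14, edgeR adjusted p = 0.00053), a call held whichever library was left out. The old libraries were all above the young ones for Hmox1, and the part of blood content in this was not tested. Hp, which encodes haptoglobin, the plasma protein that binds free hemoglobin, was higher at 0.92 ± 0.27 (3.28 ± 0.271 CPM in old and 1.73 ± 0.599 CPM in young, edgeR adjusted p = 0.032), and the heme exporter gene Flvcr1 at 0.52 ± 0.17 (edgeR adjusted p = 0.049). Hp stayed called without young 1 and lost its call without any other library, and Flvcr1 stayed called without old 1 and lost its call without any other. Flvcr1 also lost its call with upper-quartile or library-size scaling, DESeq2, limma-voom and FPKM values, and Hp with DESeq2 (adjusted p = 0.0538) and with unfiltered FPKM values.

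The summed lists of other blood cells varied less between libraries than globin did. So did the summed red cell membrane list, where young 2 was 1.13 times young 1. The platelet list summed to 101, 67.2 and 67.3 CPM in old 1, old 2 and old 3, against 50.7, 82.8 and 60.7 CPM in young 1, young 2 and young 3, and young 2 was 1.63 times young 1. Ppbp, a platelet chemokine gene named after its values were seen, had 14, 7.17 and 6.67 CPM in old, against 4.53, 17.7 and 9.91 CPM in young libraries. Young 1 was thus the lowest and young 2 the highest library for Ppbp, as for the globins. No other tested platelet gene had both. Itga2b had 12.7 CPM in old 1 and 6.15 CPM in young 2, and Tubb1 had 8.41 and 5.01 CPM, with old 1 the highest library for each. Of 9 tested platelet genes 1 was higher, Pf4 (0.62 ± 0.11, edgeR adjusted p = 0.0021), and 1 lower, Alox12 (-0.41 ± 0.11, edgeR adjusted p = 0.023). Alox12 stayed called without old 3 and lost its call without any other library and with DESeq2. Pf4 is also expressed by heart macrophages.

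White cell markers were low. The neutrophil list summed to 22.5 to 23.5 CPM in old and 18.8 to 30 CPM in young libraries, with Elane at 0 throughout. The lymphocyte list summed to 9.76 to 19.3 CPM in old and 10.4 to 18.1 CPM in young libraries, and the blood monocyte list to 107 to 121 CPM in old and 115 to 121 CPM in young libraries, most of it F13a1 (106 ± 7.82 CPM in old and 105 ± 1.13 CPM in young hearts, 0.01 ± 0.08), which tissue macrophages also express. Called genes were Lcn2 of the neutrophil list (higher, 1.03 ± 0.26, edgeR adjusted p = 0.015), and of the lymphocyte list Cd3g (higher, 1.83 ± 0.40, adjusted p = 0.0081), Cd3e (higher, 1.59 ± 0.45, adjusted p = 0.027) and the granzyme gene Gzma (lower, -2.80 ± 0.66, adjusted p = 0.011). Gzma had 0.177, 0.346 and 0.26 CPM in old 1, old 2 and old 3, against 1.09, 3.69 and 1.01 CPM in young 1, young 2 and young 3. It was highest in young 2, the library richest in globin, but young 3, the next richest, lay below young 1, the poorest. Its counts summed to only 78 over all libraries, and its call was lost with limma on unfiltered FPKM values (adjusted p = 0.054). Lcn2 lost its call without old 2, young 2 or young 3 and with unfiltered FPKM values. Cd3e lost its call without old 1, old 3, young 1 or young 3 and with DESeq2. Of 5 tested monocyte genes 0 were called, and Ccr2, the receptor that draws monocytes into tissue, had 3.87 ± 0.31 CPM in old and 5.42 ± 1.33 CPM in young hearts (-0.48 ± 0.21, edgeR adjusted p = 0.117). The part of blood content in these results was not tested.

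Some markers of the heart's own cells were called as well, where 22.0% of all genes tested were called. Of 10 cardiomyocyte genes 2 were higher and 2 lower in old hearts, led by the cardiac actin gene Actc1 (17339 ± 1302 CPM in old and 8207 ± 326 CPM in young, 1.08 ± 0.08, edgeR adjusted p = 8.75e-06), with the sarcomere genes Mybpc3 (-0.59 ± 0.12, adjusted p = 0.00572) and Ttn (-0.50 ± 0.12, adjusted p = 0.0115) lower. Of 8 endothelial genes, which mark the vessel lining, 0 were higher and 2 lower: Tek (-0.50 ± 0.10, edgeR adjusted p = 0.00552) and Kdr (-0.54 ± 0.17, edgeR adjusted p = 0.0369). Kdr stayed called without old 3 and lost its call without any other library, with DESeq2 and with unfiltered FPKM values, and Ttn lost its call without old 1 and without young 3. The endothelial list summed to 1662, 1682 and 2078 CPM in old 1, old 2 and old 3, against 2209, 1966 and 2162 CPM in young 1, young 2 and young 3, so young 2, the library with the most globin, was the lowest young library there.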

How the data were processed

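Libraries of heart RNA (TruSeq Stranded mRNA kit and mirVana extraction, per the labels' protocols) came from 3 old and 3 young mice. The authors deposited raw gene counts and FPKM values, which are scaled by gene length and library total. The submitters' processing notes name GRCm39 and list HISAT2, Bowtie2, StringTie, Cufflinks, HTSeq, DESeq and Trimmomatic, with no version, and the strand setting of the counting is likewise not given in the sources used here. The 12 per-sample files equalled the tables of all samples. The deposited counts went into edgeR 4.0.16 under R 4.3.3 (filterByExpr, TMM, quasi-likelihood F test, no covariate) on the whole table of 12893 genes, again with the paralogs summed to 1 row, and single values with exact 2-sided permutation tests. A fold change is the log2 of old divided by young, and its standard error comes from it and the F statistic. Alternatives were other scalings (upper quartile, RLE, library size alone), other filters, each library left out, a replicate block, DESeq2 1.42.0, and limma 3.58.1 with voom or on log2 of the deposited FPKM plus 1 or 0.1. Members and lists were chosen with earlier results of these data known. Named genes are the members, up to 3 called genes per list by smallest p (otherwise the 2 most abundant) and the 8 nearest profiles, of which 2 genes are not reported here, and others are marked. Where nothing but the number in a title says that mice are separate, p-values measure only the spread between these samples. Replicates differed by more than sampling noise (chi-square per degree of freedom 7.9 to 16.7).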

Additional observations from a re-analysis of the deposited data

How the results depend on the processing

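All 5 members, whose levels went together across the libraries, kept a negative fold change in every fit run, with summed globin between -0.17 and -1.36. Hba-a2, the 1 member called, stayed called by edgeR under the other scalings and filters. The count of members called lower was 0 with DESeq2, with limma-voom, with limma on FPKM + 1 (with or without the filter) and on FPKM + 0.1, and 0 with the replicate block. With 1 library left out it ranged from 0 to 5, and summed globin from -1.36 to -0.17 (called without young 1). The block also ended the calls of Hba-a2 (-1.10, adjusted p = 0.11), Flvcr1 (0.0564) and Xpo7 (0.074). It added others: Isg20 was called lower (-0.79, edgeR adjusted p = 0.0353), and 4 membrane genes were called lower in place of 2. With the replicate block summed globin stood at -0.56 (edgeR adjusted p = 0.162). Deviations of same-numbered libraries correlated at 0.077, 0.072 and 0.012, and those of differently numbered libraries at -0.14 to 0.072. Whether libraries with the same number were handled together is not given in the labels and was not tested. Over the lists of red cell, heme and blood genes together, 18 of 82 genes tested were called (22.0%, as over all genes): 7 lower (2 to 14 with 1 library left out: 2 without old 1, 14 without young 1, 4 without young 2, 3 without young 3) and 11 higher (4 to 8 with 1 library left out; 6 with limma on FPKM + 1 without a filter). The causes were not tested. With 3 mice a group and a 7.44-fold range among young libraries, the spread between mice was large beside counting error for the members. Depth limited the lists, since genes with few counts were not tested.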
